A study of Homo sapiens with 18 samples.

Results

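The 48 genes described here encode proteins of G2 phase and mitosis, chosen by symbol from a list of cyclins, mitotic kinases, checkpoint, kinetochore, spindle, cytokinesis and condensin proteins, and they are 48 of the 28394 genes in the count table. All 48 were counted deeply enough to be tested, and no library had fewer than 44 reads on any of them. They were followed in HEK293T cells, an established human embryonic kidney line, carrying 1 of 3 stable reporters under a Tet-inducible promoter. The reporter was GFP-P2A-102xPR in 1 line and GFP-P2A-poly-adenylate in another, and the line with GFP-P2A-ChFP served as the negative control. P2A is a peptide at which the ribosome releases GFP and goes on to the second reading frame, and 102xPR stands for 102 repeats of the dipeptide proline-arginine. Each line was left uninduced or was induced for 48 h with doxycycline, at 500 ng/μl as the labels give it, with 3 libraries in each of the 6 groups. The design asks whether translation stalled on poly-adenylate changes gene expression in the way that translation stalled on poly-PR does. The labels do not say whether a line is a single clone, whether the 3 replicates were separate cultures, or how much reporter protein was made, and the p-values therefore reflect library-to-library spread alone, possibly of technical origin.

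Mitosis is driven by cyclin-dependent kinase 1 with its cyclins. The B-type cyclins build up in G2 and are destroyed at anaphase onset through the anaphase-promoting complex (APC/C). The spindle checkpoint holds that destruction back until kinetochores, the protein plates on centromeric chromatin, have captured microtubules. Many genes of this programme are held down in resting cells by the DREAM complex and activated late in the cycle by MuvB with MYBL2 and then FOXM1, through a promoter element called CHR and through CCAAT boxes. In bulk RNA of a growing culture, a change in the share of cells in G2 or mitosis and a change in RNA per cell cannot be told apart.

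In the 102xPR line 40 of the 48 genes changed on induction: 31 rose, 9 fell and 8 did not pass the test (edgeR quasi-likelihood test, Benjamini-Hochberg adjusted p under 0.05 over all 15447 genes tested). Of all genes tested, 67.3% changed in that line, 33.8% up and 33.4% down. In the ChFP line no member rose and 11 fell, against 1.13% and 0.887% of all genes and 2.01% in either direction. In the poly-adenylate line no member passed, against 0.816% and 0.265% of all genes and 1.08% in either direction. The median log2 fold change of the 48 genes was 0.19 in the 102xPR line, -0.165 in the ChFP line and -0.06 in the poly-adenylate line, beside -0.0098, 0.011 and -0.0014 over all genes tested.

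Promoters are shown first for the members that marked the extremes of the 102xPR response and have an entry in the RefSeq promoter table (GRCh38.p14). NDC80 and PRC1 had the largest rises among members with an entry, and SPC25 and CDC25B the largest falls. Each sequence runs 5′ to 3′ on the strand of the gene, from 250 bases before the annotated transcript start to 20 bases after it. Capitals mark the CHR letters TTTGAA or TTTAAA and the CCAAT box, read on either strand.
NDC80, chr18:2571307-2571576, + strand: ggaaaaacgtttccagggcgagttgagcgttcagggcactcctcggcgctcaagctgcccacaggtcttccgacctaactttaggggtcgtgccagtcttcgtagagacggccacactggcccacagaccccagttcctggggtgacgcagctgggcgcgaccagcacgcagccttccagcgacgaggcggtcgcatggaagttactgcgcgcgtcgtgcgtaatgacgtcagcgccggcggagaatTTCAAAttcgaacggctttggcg
PRC1, chr15:90994516-90994785, - strand: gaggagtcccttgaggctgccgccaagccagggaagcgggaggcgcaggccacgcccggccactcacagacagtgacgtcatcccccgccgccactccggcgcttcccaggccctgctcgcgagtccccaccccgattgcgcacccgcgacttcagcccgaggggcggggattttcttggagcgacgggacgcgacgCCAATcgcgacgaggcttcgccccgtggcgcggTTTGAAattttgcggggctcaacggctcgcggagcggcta
SPC25, chr2:168890411-168890680, - strand: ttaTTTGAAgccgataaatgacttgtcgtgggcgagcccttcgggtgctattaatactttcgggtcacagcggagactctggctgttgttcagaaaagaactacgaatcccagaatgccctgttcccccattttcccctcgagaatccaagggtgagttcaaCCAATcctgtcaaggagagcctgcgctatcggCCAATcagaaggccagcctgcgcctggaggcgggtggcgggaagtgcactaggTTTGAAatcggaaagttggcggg
CDC25B, chr20:3786701-3786970, + strand: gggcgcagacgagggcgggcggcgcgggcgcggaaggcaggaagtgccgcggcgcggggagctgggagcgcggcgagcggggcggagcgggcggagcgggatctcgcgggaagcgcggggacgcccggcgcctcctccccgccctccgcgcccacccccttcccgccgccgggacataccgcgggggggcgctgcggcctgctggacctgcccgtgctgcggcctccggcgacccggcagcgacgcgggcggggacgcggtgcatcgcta

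The NDC80 and SPC25 promoters, of genes that moved in opposite directions and encode subunits of the same complex, both carry a CHR match that spans the transcript start, and the PRC1 promoter carries a CHR match 20 bases before it. The outermost CDC25B promoter holds no CHR or CCAAT match in the printed window, and the other 3 annotated starts of CDC25B are counted below but not printed. Over windows of 250 bases before to 50 bases after the start, 42 of the 48 members had an entry, with 55 promoters in all. A CHR match was present in 74.5% of these 55 promoters and in 24.0% of all 35116 promoters of the table. CCAAT was present in 70.9% against 34.6%, both together in 56.4% against 9.27%, and the E2F core TTCCCGC or TTGGCGC in 20.0% against 9.23%. Split by the 102xPR response, a CHR match stood in 68.6% of the 35 promoters of members that rose, in 76.9% of the 13 of members that fell, and in all 7 of members that did not pass. All motifs were searched on both strands, overlaps between motifs were kept, and E2F matches are not in capitals. A match describes letters, not a bound factor.

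Libraries held 15020739 to 27331102 counts, and the members together took 0.66% of them. The second principal component of all genes, with 7.61% of the variance, parted the libraries by sign into 8 and 10, called the set of 8 and the set of 10 here, a division that the labels do not mention. From the 102xPR line the set of 8 has induced replicates 1 and 2, from the poly-adenylate line uninduced replicates 2 and 3, and from the ChFP line induced replicate 3 with every uninduced library. Mitochondrial transcripts made up 6.3 to 7.15% of counts in the set of 8 and 4.35 to 5.16% in the set of 10 outside induced 102xPR cells. In induced 102xPR cells, where most members rose, they were lower in each set, at 4.56 and 4.46% in the set of 8 and 2.96% in the set of 10, and their part in the responses was not tested. These sets come from the data and touch several results below, and fits with and without them are given for many of those results. Of the markers of HEK293T origin, 4 of 5 epithelial, 3 of 5 kidney progenitor and 4 of 5 neuroblast genes averaged at least 1 CPM (the count as a share of its library, scaled to the same total in all). Blood markers summed to 2.24 to 3.89 CPM, with CD3E at 0 in every library. Hepatocyte markers summed to 2.24 to 3.1 CPM in induced 102xPR cells and 0.242 to 0.769 CPM in all other libraries, and fibroblast markers to 15 to 15.6 CPM and 20.9 to 27.5 CPM. Single markers went both ways from uninduced to induced 102xPR cells (mean CPM). ALB went from 0.0133 to 0.998, TF from 0.226 to 1.46 and APOA1 from 0.337 to 0.141. COL1A1 went from 19.2 to 13.1, COL3A1 from 2.87 to 0.992 and PDGFRB from 0.375 to 1.16. The epithelial gene CDH1 went from 3.52 to 0.904. The part of these markers in the member responses was not tested.

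The summed level of the 48 genes was 6270, 6522 and 6580 CPM, relative to the scaled library size, in uninduced 102xPR cells and 7580, 7536 and 7294 CPM in induced ones, a rise of 15.7% in the mean. In the ChFP line it was 6964, 6805 and 6889 CPM uninduced and 5989, 6036 and 6285 CPM induced, which is -11.4% in the mean. In the poly-adenylate line it was 6196, 6590 and 6687 CPM uninduced and 6085, 6058 and 6342 CPM induced, -5.07% in the mean. Every induced 102xPR library stood above every other library, every induced ChFP library stood below every uninduced ChFP library, and the poly-adenylate groups overlapped. Outside induced 102xPR cells the sum was 6285 to 6964 CPM in the set of 8 and 5989 to 6580 CPM in the set of 10, so the sets overlap but the higher values belong to the set of 8.

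**Figure D1:**
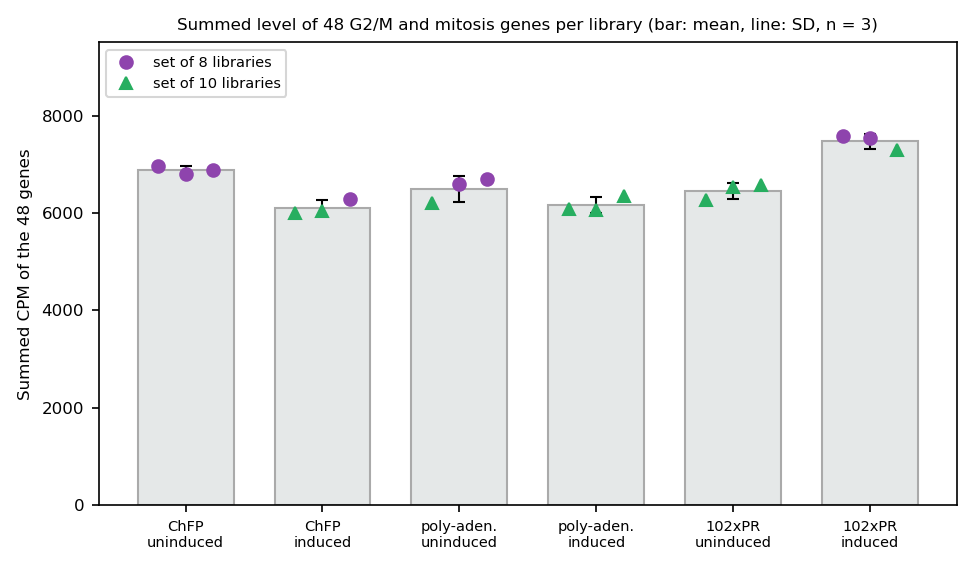
Summed CPM of the 48 genes per library (y axis) in the 6 groups (x axis), with the mean as a bar, the SD of 3 libraries as a line, circles for the set of 8 and triangles for the set of 10. The 3 induced 102xPR libraries, at 7294 to 7580, lie above the other 15, which lie at 5989 to 6964.

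Within the 102xPR line 5 of the 10 role groups held both rises and falls. All 7 spindle assembly genes, all 4 mitotic kinases and all 3 cytokinesis genes rose, while the cyclin and CDC25 group had 2 rises and 3 falls among 6 genes and the centromere and outer kinetochore group 2 and 2 among 6. The whole range ran from -0.48 (SPC25) to 0.95 (NDC80) on the log2 scale. The median size of a change without regard to sign was 0.22 for the members and 0.38 for all genes. All genes were not matched to the members for expression level, and low counts widen such values. Of the members, 29 had all 3 induced 102xPR libraries above all 3 uninduced ones and 8 had them below, beside 35.4% and 34.6% of all genes.

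**Figure D2:**
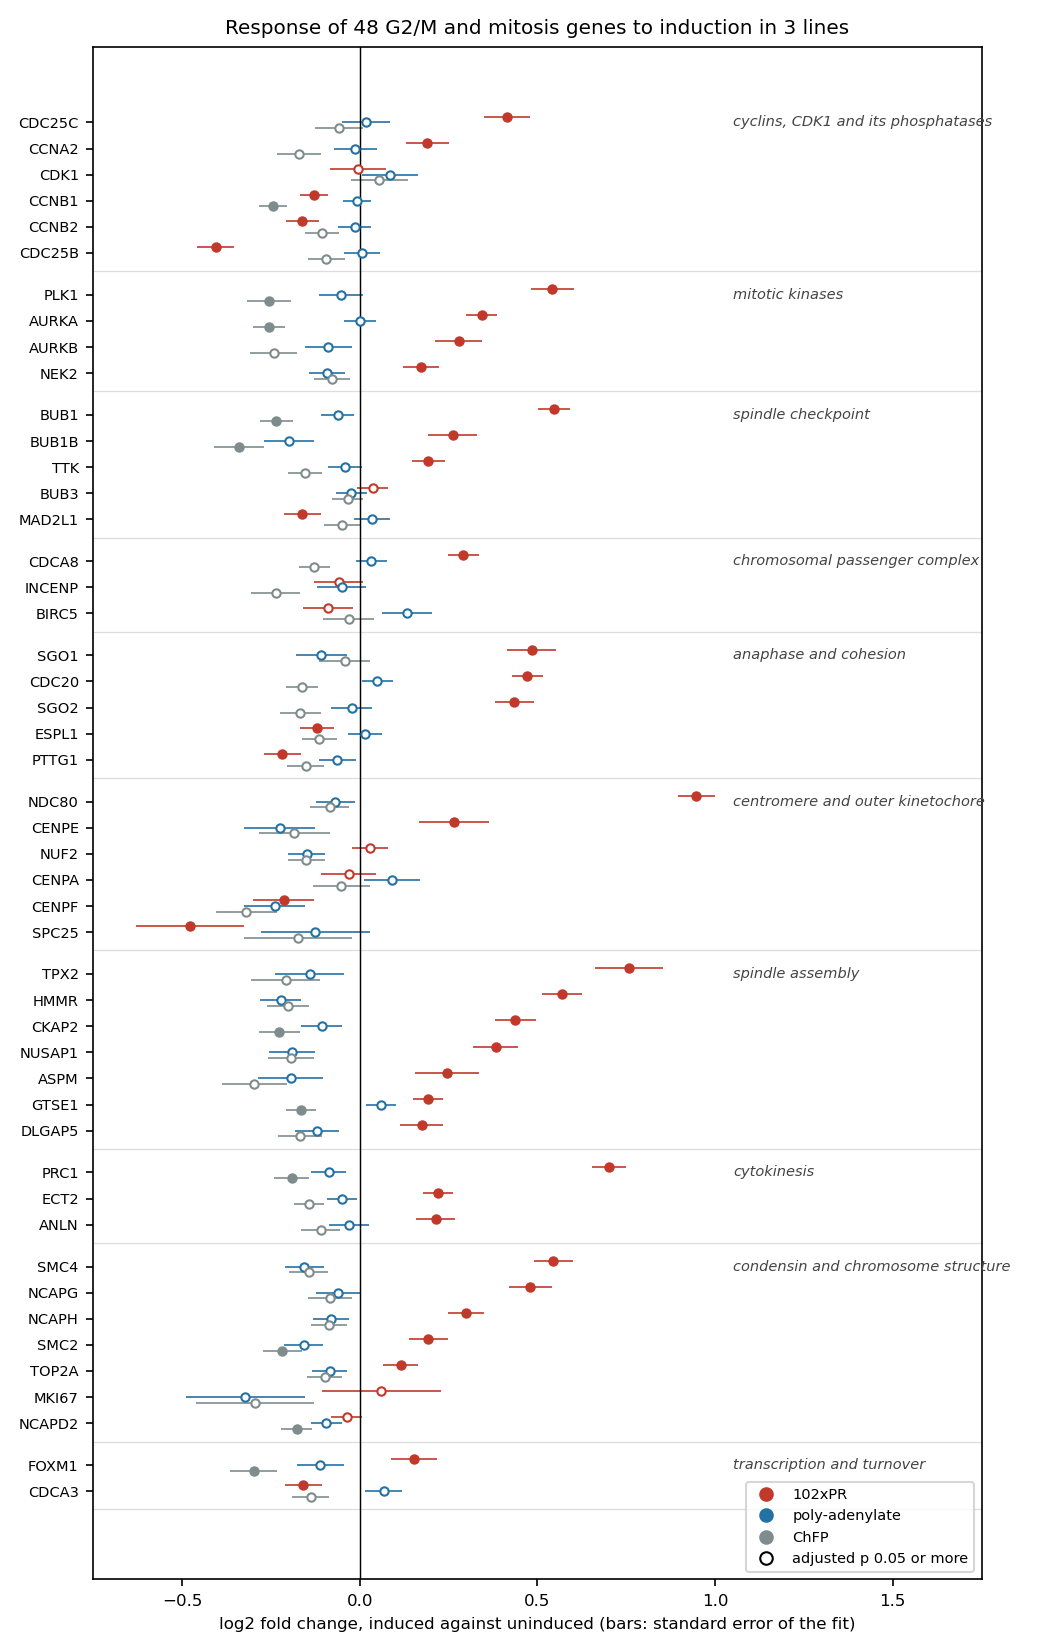
The log2 fold change of induced against uninduced cells (x axis) for each of the 48 genes (y axis, grouped by role) in the 3 lines, with standard errors of the fit as bars and filled points for adjusted p under 0.05. The 102xPR points run from -0.48 to 0.95 and 40 are filled, while 11 ChFP points and no poly-adenylate point are filled.

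Among the cyclins, CDK1 and its phosphatases, both B-type cyclins fell and cyclin A2 rose in the 102xPR line. CCNB1, cyclin B1, was at 239, 242 and 260 CPM in uninduced and 225, 223 and 229 CPM in induced 102xPR cells (log2 fold change -0.13 ± 0.04 (SE), adjusted p = 0.00543). Its induced libraries all lay below its uninduced ones, but the call ended without uninduced replicate 3 and within the set of 10. CCNB2, cyclin B2, fell by 0.16 ± 0.05, and CCNA2, cyclin A2, rose by 0.19 ± 0.06. The CCNA2 call ended without uninduced replicate 1 and with a term for the library set. CDC25C and CDC25B, phosphatases that remove the inhibitory phosphates from CDK1, moved in opposite directions. CDC25C rose from 24.8 ± 1.24 to 32.9 ± 2.18 CPM (SD, n = 3; 0.41 ± 0.06 on the log2 scale), and CDC25B was at 112, 111 and 118 CPM uninduced and 85.8, 90.1 and 81.3 CPM induced (-0.41 ± 0.05, adjusted p = 2.88e-07). Both pairs of groups were fully separate.

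CDK1, the mitotic kinase itself, was at 166, 161 and 165 CPM in uninduced and 151, 157 and 183 CPM in induced 102xPR cells (-0.0043 ± 0.08, adjusted p = 0.966). The induced library of the set of 10 was the highest of the 6 and the induced libraries of the set of 8 the lowest. Across the 15 libraries outside induced 102xPR cells, CDK1 lay at 126 to 143 CPM in the set of 8 and 150 to 166 CPM in the set of 10, without overlap. With a term for the set, CDK1 passed as a rise in the 102xPR line (0.17, adjusted p = 0.000486), and within the set of 10, with its lone induced library, it also passed (0.16, adjusted p = 0.0248). In the ChFP line CDK1 was at 139, 137 and 143 CPM uninduced and 154, 155 and 126 CPM induced (0.05 ± 0.08), and in the poly-adenylate line at 162, 136 and 134 CPM and at 155, 154 and 150 CPM (0.09 ± 0.08). The libraries that stood low in these lines, induced ChFP replicate 3 and uninduced poly-adenylate replicates 2 and 3, all belong to the set of 8.

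The mitotic kinases all rose in the 102xPR line. PLK1, polo-like kinase 1, was at 207, 221 and 215 CPM uninduced and 313, 330 and 293 CPM induced (0.54 ± 0.06, adjusted p = 4.47e-08). AURKA, the centrosomal Aurora kinase, was at 120, 121 and 118 CPM and at 157, 152 and 147 CPM (0.34 ± 0.04, adjusted p = 3.26e-07). For both, the lowest induced library stood well above the highest uninduced one. AURKB, the kinase of the chromosomal passenger complex, rose by 0.28 ± 0.07, and NEK2, which acts in centrosome separation, by 0.17 ± 0.05. AURKB was no longer called within the set of 10.

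In the spindle checkpoint 3 genes rose, 1 fell and 1 did not pass. BUB1, a checkpoint kinase at kinetochores, was at 133, 139 and 138 CPM uninduced and 207, 198 and 195 CPM induced (0.55 ± 0.05, adjusted p = 2.76e-10). BUB1B, which encodes the APC/C inhibitor BubR1, was at 85.7, 90.2 and 94.4 CPM and at 112, 110 and 101 CPM (0.26 ± 0.07, adjusted p = 0.00227). Both genes had separate groups, with BUB1 the wider apart, and BUB1B was not called within the set of 10. TTK, the kinase that starts checkpoint signalling, rose by 0.19 ± 0.05, MAD2L1, the inhibitor of CDC20, fell by 0.16 ± 0.05, and BUB3 changed by 0.04 ± 0.04 (adjusted p = 0.466). The MAD2L1 call ended without induced replicate 1.

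In the chromosomal passenger complex, which corrects faulty attachments, the subunits did not move together. CDCA8, borealin, rose from 84.4 ± 2.66 to 103 ± 1.05 CPM (SD, n = 3; 0.29 ± 0.04). The scaffold INCENP was at -0.06 ± 0.07 (adjusted p = 0.46) and BIRC5, survivin, at -0.09 ± 0.07 (adjusted p = 0.265), and neither passed. INCENP passed as a fall with a term for the library set, with or without a replicate block. BIRC5 was lower in the set of 8 by 0.23 on the log2 scale, which is larger than its 102xPR value.

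Genes of anaphase onset and cohesion protection went both ways. CDC20, the activator of the APC/C, rose from 195 ± 2.64 to 271 ± 4.86 CPM (0.47 ± 0.04, adjusted p = 1.54e-09). The shugoshins SGO1 and SGO2, which shield centromeric cohesin, rose by 0.48 ± 0.07 and 0.43 ± 0.06. PTTG1, securin, fell by 0.22 ± 0.05 and its partner ESPL1, the protease separase, by 0.12 ± 0.05. The ESPL1 call ended without induced replicate 1, without induced replicate 2 or without uninduced replicate 2.

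At the kinetochore the largest rise and the largest fall of all 48 genes fell within the NDC80 complex, the rod of 4 subunits that binds microtubules. NDC80 (chr18:2571557-2616635) was at 34.5, 35.7 and 36.6 CPM uninduced and 69, 69 and 67.8 CPM induced (0.95 ± 0.05, adjusted p = 2.61e-13). SPC25 (chr2:168861521-168890430) was at 3.24, 3.24 and 2.8 CPM uninduced and 2.05, 2.22 and 2.44 CPM induced (-0.48 ± 0.15, adjusted p = 0.00798). NUF2, the direct partner of NDC80, was at 57.7 ± 2.07 CPM uninduced and 58.9 ± 1.65 CPM induced (0.03 ± 0.05, adjusted p = 0.645). SPC24, the partner of SPC25 and not among the 48, fell from 56.2 ± 3.28 to 35 ± 2.14 CPM (-0.69 ± 0.06, adjusted p = 3.57e-10). Of the 4 subunits, NDC80 thus rose, NUF2 did not pass and SPC24 and SPC25 fell. SPC25 was the lowest member per length, at 2.07 CPM per kb, and its call was lost within the set of 10.

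The other centromere proteins showed small changes. CENPE, a kinesin of the kinetochore, rose by 0.26 ± 0.10 and CENPF, a large kinetochore protein, fell by 0.21 ± 0.09, with overlapping groups in both and calls that each ended without some single library. CENPA, the centromeric histone H3 variant, was at -0.03 ± 0.08 (adjusted p = 0.732) and did not pass, but passed as a rise with a term for the library set (0.13, adjusted p = 0.0467).

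Spindle assembly was the only role group with more than 4 members in which every member rose. TPX2, which activates AURKA on spindle microtubules, was at 161, 192 and 181 CPM uninduced and 318, 302 and 283 CPM induced (0.76 ± 0.10, adjusted p = 2.77e-06). HMMR, a spindle pole protein, was at 72.1, 71.6 and 78.5 CPM and at 117, 105 and 107 CPM (0.57 ± 0.06, adjusted p = 6.33e-09). Each induced value was above each uninduced value for both genes. CKAP2 rose by 0.44 ± 0.06, NUSAP1 by 0.38 ± 0.06, ASPM by 0.25 ± 0.09, GTSE1 by 0.19 ± 0.04 and DLGAP5 by 0.17 ± 0.06. These 5 encode microtubule-associated proteins. The calls of ASPM and DLGAP5 were lost without single libraries and within the set of 10.

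In cytokinesis, PRC1, which bundles antiparallel microtubules of the spindle midzone, was at 165, 170 and 176 CPM uninduced and 285, 274 and 272 CPM induced (0.70 ± 0.05, adjusted p = 1.03e-11). ECT2, an exchange factor that acts at the division site, rose by 0.22 ± 0.04 and ANLN, the ring scaffold anillin, by 0.21 ± 0.05. All 3 had separate groups, but the ANLN call was lost within the set of 10.

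Among condensin and chromosome structure genes, 5 of 7 rose. SMC4 and SMC2, the paired ATPase arms of condensin, rose by 0.55 ± 0.05 and 0.19 ± 0.05, and the condensin I subunits NCAPG and NCAPH by 0.48 ± 0.06 and 0.30 ± 0.05. NCAPD2, also of condensin I, was at -0.04 ± 0.04 (adjusted p = 0.462) and did not pass. Condensin I subunits thus also changed unequally. The SMC2 call was lost with a term for the library set and within the set of 10.

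TOP2A, the topoisomerase that disentangles sister chromatids, was at 324, 351 and 338 CPM uninduced and 372, 358 and 367 CPM induced (0.12 ± 0.05, adjusted p = 0.041). The induced libraries lay just above the uninduced ones, and the call was lost without induced replicate 1 or 3 or uninduced replicate 1 or 3. MKI67, which encodes the proliferation antigen Ki-67, was at 225, 280 and 271 CPM and at 273, 294 and 242 CPM (0.06 ± 0.17, adjusted p = 0.763). Its groups overlapped and its standard error was the largest of the 48 genes, and it passed as a fall in the fit with the replicate block and the library-set term (-0.19, adjusted p = 0.00231). FOXM1, the transcription factor of the programme, was at 216, 211 and 217 CPM and at 255, 249 and 211 CPM (0.15 ± 0.07, adjusted p = 0.0449), with the induced library of the set of 10 no higher than the uninduced ones. Its call was lost without induced replicate 1 or 2, without any single uninduced library and with the library-set term, and within the set of 10 its response was -0.03. CDCA3, a ubiquitin ligase adaptor for mitotic entry, fell by 0.16 ± 0.05, a call lost without uninduced replicate 1.

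**Figure D3:**
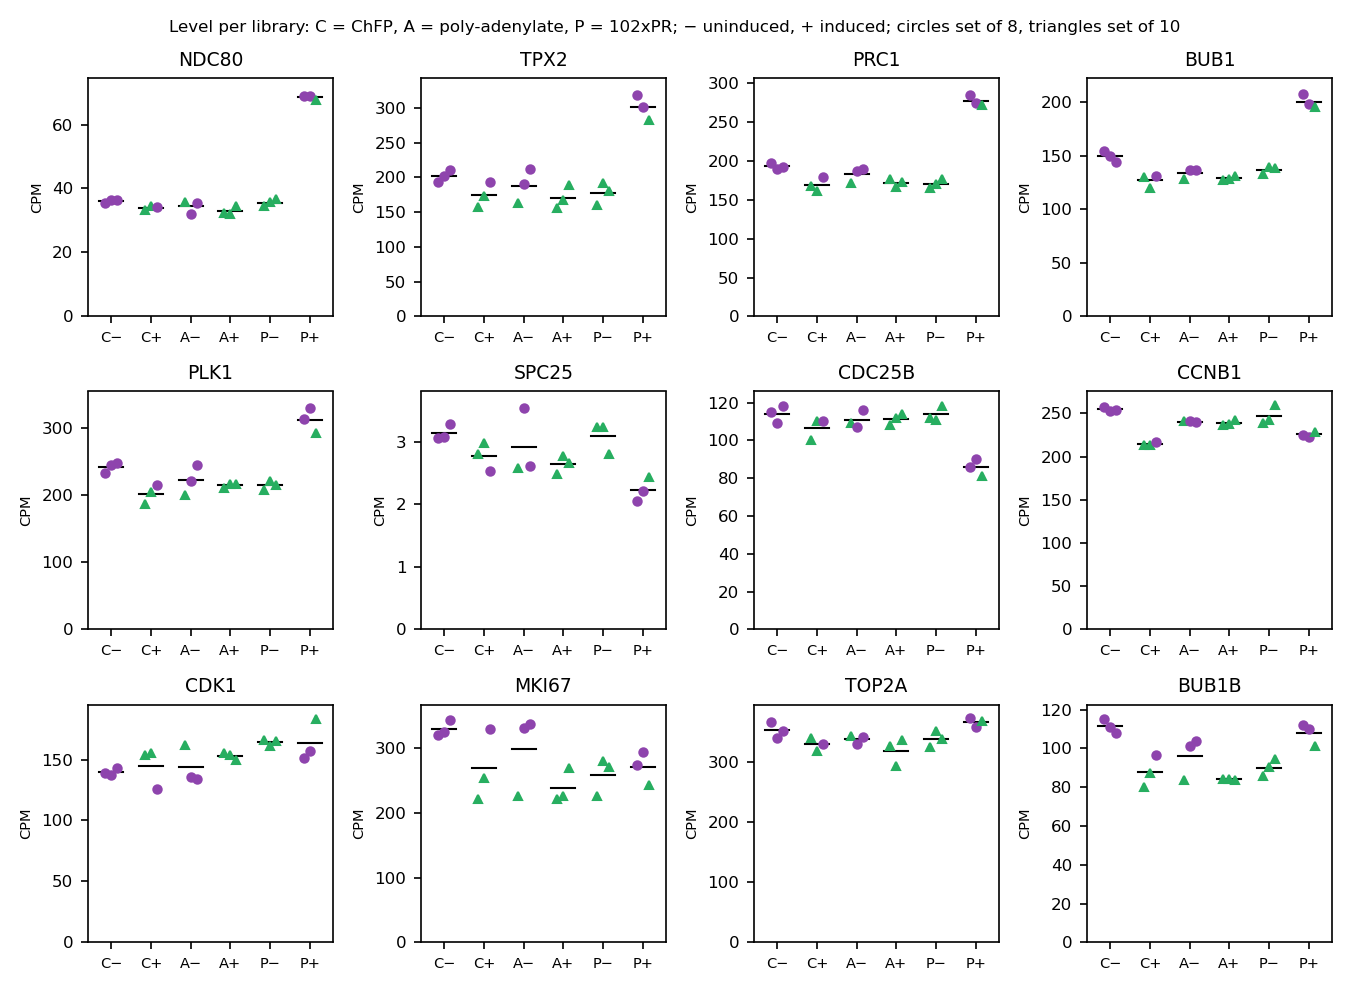
CPM per library (y axis, from 0) for 12 members in the 6 groups (x axis), with group means as bars, circles for the set of 8 and triangles for the set of 10. NDC80, TPX2, PRC1, BUB1 and PLK1 stand apart in induced 102xPR cells, SPC25 and CDC25B are lowest there, and MKI67 and CDK1 follow the library sets.

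Of the 40 calls in the 102xPR line, 29 held without any single library, and leaving out a library in turn gave 32 to 38. Within the set of 10, which compares 1 induced with 3 uninduced libraries and assumes that the lone library varies like the other groups, 27 members were called, 23 higher and 4 lower. With a term for the set over all libraries, 35 were called, 28 higher and 7 lower. That fit lost CCNA2, MAD2L1, ESPL1, CENPE, ASPM, SMC2, FOXM1 and CDCA3 and gained INCENP, CDK1 and CENPA. The fit within the set of 10 lost CCNB1, AURKB, BUB1B, MAD2L1, ESPL1, CENPE, SPC25, DLGAP5, ASPM, ANLN, SMC2, TOP2A, CDCA3 and FOXM1. Shares of all genes called in these fits and without single libraries are not given, so these counts have no background beside them.

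The same set difference was visible across the members and was larger than some responses. With groups held fixed, 33 members were higher and 15 lower in the set of 8, with a median of 0.05 beside -0.01 over all genes. MKI67 was higher by 0.42, CENPE by 0.30 and ASPM by 0.26, and CDK1, CENPA and BIRC5 were lower (-0.27, -0.25 and -0.23). MKI67 was at 320 to 343 CPM in the set of 8 and 221 to 280 CPM in the set of 10 outside induced 102xPR cells. Since the sets were drawn from the same data, these differences are a description.

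The length of the longest protein-coding transcript in GENCODE v29 ran from 1.07 kb (PTTG1) to 12.7 kb (MKI67). Of the 24 shorter members 15 rose and 5 fell in the 102xPR line, and of the 24 longer ones 16 rose and 4 fell. The Spearman correlation of length with the difference between the library sets was 0.33 over the members. It was 0.3 over all genes tested with a coding transcript. Per length, the highest members on the mean over groups were PTTG1 at 138 CPM per kb, CDC20 at 112 and CCNB1 at 109, and the lowest above SPC25 was CENPE at 9.3.

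In the ChFP line, the negative control, induction went with lower levels of mitotic genes. Of the 48 genes, 47 had a log2 fold change below 0, while 52.7% of all genes were above 0, and 37 had all induced libraries below all uninduced ones, against 12.9% of all genes. The 11 that fell were CCNB1, AURKA, PLK1, BUB1, BUB1B, CKAP2, GTSE1, PRC1, SMC2, NCAPD2 and FOXM1. At an unadjusted p under 0.05, 31 members were lower and none higher, beside 9.24% and 10.4% of all genes, and DESeq2 called none higher. CDK1 had the only value above 0.

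CCNB1 in the ChFP line was at 257, 253 and 254 CPM uninduced and 214, 214 and 217 CPM induced (-0.24 ± 0.04, adjusted p = 0.00271). AURKA was at 134, 131 and 127 CPM and at 106, 108 and 114 CPM (-0.26 ± 0.04, adjusted p = 0.00529). These 2 were the only members whose calls held without any single library. For CCNB1 the induced library of the set of 8 lay beside the induced libraries of the set of 10. For AURKA that library, at 114 CPM, was the nearest to the uninduced libraries. The AURKA call held with a term for the library set but was lost within the set of 8, which has that lone induced ChFP library.

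BUB1B was at 115, 111 and 108 CPM uninduced and 79.9, 87.4 and 96.6 CPM induced (-0.34 ± 0.07, adjusted p = 0.0163). FOXM1 was at 237, 236 and 241 CPM and at 190, 189 and 202 CPM (-0.30 ± 0.07, adjusted p = 0.0246). PLK1 was at 232, 245 and 248 CPM and at 187, 204 and 215 CPM (-0.26 ± 0.06, adjusted p = 0.0341). In all 3 genes the induced library of the set of 8, replicate 3, was the nearest to the uninduced libraries, which all belong to that set. Of the 5 genes with the largest 102xPR rises, PRC1 and BUB1 fell here and NDC80, TPX2 and HMMR did not pass. NDC80 was at 35.4, 36.4 and 36.5 CPM and at 33.2, 34.5 and 34.3 CPM (-0.09 ± 0.05), and TPX2 at 194, 202 and 211 CPM and at 157, 174 and 193 CPM (-0.21 ± 0.10). PRC1 was at 197, 190 and 192 CPM and at 167, 161 and 179 CPM (-0.19 ± 0.05, adjusted p = 0.0423), BUB1 at 154, 150 and 144 CPM and at 130, 120 and 131 CPM (-0.24 ± 0.05, adjusted p = 0.0118), and HMMR at 83, 82.2 and 86 CPM and at 72.4, 68.8 and 76.9 CPM (-0.20 ± 0.06, adjusted p = 0.0658).

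Neither of the proliferation genes MKI67 and TOP2A passed in the ChFP line. MKI67 was at 320, 324 and 343 CPM uninduced and 221, 254 and 329 CPM induced (-0.29 ± 0.17, adjusted p = 0.347), and TOP2A at 366, 339 and 351 CPM and at 339, 318 and 329 CPM (-0.10 ± 0.05, adjusted p = 0.267). Induced replicate 3 reached the uninduced level of MKI67.

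The count in the ChFP line depended on single libraries and on the sets. It was 3, 2 or 24 without induced replicate 1, 2 or 3, and 2, 2 or 4 without uninduced replicate 1, 2 or 3. In the fit without induced replicate 3, the uninduced libraries all belong to the set of 8 and the induced ones left do not. Induction and set therefore cannot be told apart in the count of 24. With a term for the library set 7 members fell. PLK1, CKAP2, PRC1, SMC2 and FOXM1 were lost there and BIRC5 was gained. The fit within the set of 8 compares induced replicate 3 alone with the 3 uninduced libraries. It takes the spread of that lone library from the other groups. There AURKA, PLK1, BUB1, BUB1B, CKAP2, GTSE1, PRC1 and SMC2 were no longer called, while BIRC5, CDC20 and ESPL1 were. Shares of all genes called in these fits are not given. The sum of the 48 genes in induced replicate 3, a single library, was 6285 CPM. The lowest uninduced library of its own set was at 6805 CPM. How much of the ChFP response follows the sets was not tested beyond these values.

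In the poly-adenylate line 37 of the 48 genes had a log2 fold change below 0, while 49.6% of all genes were above 0. Of the members, 10 had an unadjusted p under 0.05, all lower in induced cells, beside 7.11% of all genes lower and 10.2% higher. None passed after adjustment. HMMR came nearest. It was at 83.1, 79.4 and 74.5 CPM uninduced and 70.2, 63.5 and 69.4 CPM induced (-0.22 ± 0.06, adjusted p = 0.0637), with all induced libraries lower, and it was called by DESeq2. GTSE1 and CDCA3 had all induced libraries above the uninduced ones, and NUF2, HMMR, SMC2, SMC4 and NCAPD2 below. That makes 2 and 5 of 48 beside 11.4% and 9.02% of all genes.

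The other members printed in full stayed close to their uninduced values or overlapped with them in the poly-adenylate line. CCNB1 was at 241, 241 and 240 CPM uninduced and 237, 238 and 243 CPM induced (-0.01 ± 0.04), AURKA at 118, 117 and 125 CPM and at 123, 118 and 120 CPM (-8.4e-05 ± 0.04), and NDC80 at 35.9, 32.1 and 35.5 CPM and at 32.4, 32.1 and 34.5 CPM (-0.07 ± 0.06). PRC1 was at 171, 187 and 190 CPM and at 177, 166 and 173 CPM (-0.09 ± 0.05), BUB1 at 128, 137 and 137 CPM and at 127, 128 and 131 CPM (-0.06 ± 0.05), and PLK1 at 200, 221 and 245 CPM and at 211, 216 and 216 CPM (-0.05 ± 0.06). Groups overlapped in each of these 6 genes. TPX2 was at 163, 190 and 212 CPM and at 156, 168 and 189 CPM (-0.14 ± 0.10), BUB1B at 83.9, 101 and 104 CPM and at 84.2, 84.2 and 83.5 CPM (-0.20 ± 0.07), and FOXM1 at 192, 231 and 237 CPM and at 199, 206 and 207 CPM (-0.11 ± 0.07). TOP2A was at 342, 329 and 341 CPM and at 326, 293 and 336 CPM (-0.08 ± 0.05), and MKI67 at 226, 331 and 337 CPM and at 221, 226 and 268 CPM (-0.32 ± 0.17). Uninduced replicate 1, the only uninduced library of this line in the set of 10, lay with the induced libraries in BUB1B, FOXM1 and MKI67. Without it 6 members were called lower (BUB1B, CENPF, NUSAP1, ASPM, SMC2 and FOXM1). The uninduced libraries left in that fit all belong to the set of 8, and the induced ones all to the set of 10. Induction and set therefore cannot be told apart there, and the share of all genes called is not given.

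The responses were then compared between lines by testing the difference itself. The 102xPR response exceeded the ChFP response in 32 members and was below it in 1, CDC25B, against 28% and 30.3% of all genes and 58.3% in either direction. The median difference was 0.36 on the log2 scale for the members and -0.02 for all genes. The smallest adjusted p values belonged to NDC80 (1.03 ± 0.08, adjusted p = 1.77e-10), PRC1 (0.89 ± 0.07, adjusted p = 3.44e-10) and BUB1 (0.78 ± 0.07, adjusted p = 1.12e-09). Since several members fell in the ChFP line, a difference can include both movements: AURKA was at 0.34 in the 102xPR line and -0.26 in the ChFP line, a difference of 0.60 ± 0.06. CCNB1 fell in both lines, and its responses differed by 0.12 ± 0.06 (adjusted p = 0.0781), which did not pass. With a term for the library set the differences of CENPE, NUF2, ASPM and FOXM1 were no longer called. Those of CENPA, NCAPD2, CDK1 and BIRC5 were called in that fit.

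Against the poly-adenylate response the 102xPR response was higher in 31 members and lower in 3 (CDC25B, MAD2L1 and CDCA3), beside 28.9% and 29.6% of all genes (58.4% in either direction), with a median difference of 0.27 beside -0.0024 for all genes. The smallest adjusted p values were those of NDC80 (1.02 ± 0.08, adjusted p = 1.99e-10), PRC1 (0.79 ± 0.07, adjusted p = 1.87e-09) and HMMR (0.79 ± 0.08, adjusted p = 2.54e-08). Both comparisons use the same 102xPR libraries. With a term for the library set, the differences from poly-adenylate of CCNA2, AURKB, BUB1B, MAD2L1, CENPE, NUF2, ASPM, ANLN, SMC2, CDCA3 and FOXM1 were no longer called. Those of PTTG1 and CDK1 were called in that fit. Within the set of 10 the count was 22, in a fit with 1 induced 102xPR and 1 uninduced poly-adenylate library, whose spread is taken from the other groups.

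The poly-adenylate and ChFP responses did not differ in any member after adjustment, and 0% and 0.0259% of all genes were called higher and lower. At an unadjusted p under 0.05, 8 members were higher in the poly-adenylate response (5.63% of all genes) and none lower (5.32%), and DESeq2 called 4, CCNB1, AURKA, CDC20 and GTSE1. The largest difference was that of AURKA, 0.26 ± 0.06 (adjusted p = 0.178), and the smallest adjusted p that of CCNB1 (0.24 ± 0.06, adjusted p = 0.161). GTSE1, a microtubule-associated protein, came next by adjusted p (0.22 ± 0.06, adjusted p = 0.202). It was at 137, 142 and 140 CPM in uninduced and 124, 126 and 123 CPM in induced ChFP cells, and at 123, 129 and 130 CPM and at 131, 131 and 135 CPM in the poly-adenylate line. Its groups were separate in both lines, in opposite directions. In 102xPR cells it went from 142, 141 and 146 CPM to 162, 158 and 171 CPM. The median standard error of such a difference over all genes was 0.12.

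Before induction the lines were not identical. Uninduced 102xPR cells had lower levels than uninduced ChFP cells in 7 members, AURKB, BUB1B, CENPF, NUSAP1, HMMR, ASPM and PRC1, from -0.34 (CENPF) to -0.18 (HMMR), beside 4.83% of all genes lower, 7.35% higher and 12.2% in either direction. The uninduced 102xPR libraries all belong to the set of 10 and the uninduced ChFP libraries all to the set of 8, so line and set cannot be told apart from these 6 libraries alone. With a term for the set, fitted over all 18 libraries, none of the 7 was called. The count was 0, 1 or 2 without uninduced ChFP replicate 1, 2 or 3 and 0 or 3 without uninduced 102xPR replicate 1 or 2. Uninduced poly-adenylate and ChFP cells differed in no member by edgeR or DESeq2, with 16 lower at an unadjusted p under 0.05 (4.92% of all genes lower, 5.23% higher), while 0.0971% of all genes were called higher, 0.00647% lower and 0.104% either way.

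Other cell cycle genes were counted by list, and each list's count in the 102xPR line is to be read against the 67.3% of all genes that changed there. Of 11 mitotic kinesins tested, 9 rose in the 102xPR line and 1 fell (KIF14), with a median of 0.35. KIF18A, which damps chromosome movements, rose by 0.81 ± 0.07, KIF15 by 0.69 ± 0.09, KIF4A by 0.42 ± 0.05 and KIF2C by 0.40 ± 0.05. In the ChFP line KIF4A (-0.27 ± 0.06) and KIF20A (-0.35 ± 0.07) fell.

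Of 25 other centromere and kinetochore genes tested, 16 rose and 4 fell (SPC24, CENPI, CENPW and CENPM), with a median of 0.17. SKA3, of the complex that follows microtubule ends, rose by 0.79 ± 0.07, CENPL by 0.72 ± 0.06 and PMF1 of the MIS12 complex by 0.68 ± 0.07. None of the 25 passed in the other lines.

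Of 13 cohesin genes, 7 rose, none fell and 6 did not pass in the 102xPR line (median 0.27), beside 33.8% of all genes that rose and 33.4% that fell. The named ones were the loader subunits NIPBL (0.78 ± 0.08) and MAU2 (0.55 ± 0.05), STAG1 (0.75 ± 0.07) and the release factor WAPL (0.53 ± 0.06), which all rose. STAG2 fell in the poly-adenylate line by 0.20 (adjusted p = 0.0493). Of the 3 condensin II subunits, NCAPG2 (-0.22 ± 0.05) and NCAPH2 (-0.36 ± 0.09) fell and NCAPD3 rose (0.13 ± 0.04).

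The 18 genes of the APC/C and its regulators went both ways, with 10 rises and 7 falls and a median of 0.19. ANAPC10 rose by 0.84 ± 0.07, CDC23 by 0.61 ± 0.06 and the inhibitor FBXO5 by 0.58 ± 0.06, while ANAPC5 fell by 0.50 ± 0.05. UBE2C, the ubiquitin-conjugating enzyme of the APC/C, fell in the ChFP line (-0.21 ± 0.04). Of 15 DREAM, MuvB and NF-Y genes, 7 rose and 4 fell in the 102xPR line. The MuvB subunits LIN9 (0.78 ± 0.05) and LIN37 (0.80 ± 0.09) rose, and RBL2 (-0.48 ± 0.05) and TFDP1 (-0.38 ± 0.05) of DREAM fell.

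In a list of 14 tested genes of the G2 checkpoint, most of them brakes on entry into mitosis or damage signalling genes, 7 rose and 2 fell (CHEK2 and PKMYT1). GADD45A, a stress-induced inhibitor of cyclin B and CDK1, went from 18.1 ± 1.96 to 72.6 ± 4.67 CPM in the 102xPR line (SD, n = 3; 1.99 ± 0.11), a larger change than that of any member. GADD45B rose by 1.15 ± 0.09, the checkpoint kinase gene CHEK1 by 0.63 ± 0.05 and CDC25A, a CDK-activating phosphatase that the checkpoint targets, by 0.56 ± 0.04. In the ChFP line GADD45A rose by 0.56 ± 0.12, BTG2 by 0.68 ± 0.10 and CDKN1A, the inhibitor p21, by 1.28 ± 0.28, from 42.9 ± 9.84 to 105 ± 29 CPM. CDKN1A also rose in the 102xPR line, by 1.20 ± 0.27, and was named for its ChFP call.

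Of the 44 genes of G1/S and replication, 27 fell, 10 rose and 7 did not pass in the 102xPR line, with a median of -0.18. The G1 cyclins CCND1 (-0.82 ± 0.05), CCNE1 (-0.81 ± 0.06) and CCND3 (-0.81 ± 0.06) fell, as did UHRF1 (-0.66 ± 0.06), which maintains DNA methylation at replication. CCND1 also fell in the ChFP line (-0.24 ± 0.05). In the poly-adenylate line none of the 44 passed.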

How the data were processed

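Poly(A) RNA of 18 libraries was measured by 100 bp single-read sequencing, 3 libraries for each of 6 groups. The authors deposited 1 table of whole-number counts per gene, not normalized. Named in the submitters' processing notes are bcl2fastq 2.20.0.422, cutadapt 3.4, HISAT2 2.1.0, DESeq2 1.30.1, featureCounts and build hg38. The authors' 2 deposited comparison tables were not used. Which annotation and strand setting featureCounts had is not stated there, so overlapping, antisense and multi-copy genes are uncertain. Of 28394 genes, 550 had no symbol (0.041% of counts) and were kept by identifier.

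Counts were filtered with filterByExpr (minimum count 10), leaving 15447 genes, scaled by TMM and fitted with edgeR 4.0.16 (R 4.3.3, robust quasi-likelihood) over all 18 libraries with 1 term per group. P-values were adjusted by Benjamini-Hochberg over all genes at 0.05. Errors of log2 fold changes are standard errors of the fit. CPM are relative to the TMM-scaled library size. No replicates differed by as little as sampling noise (smallest chi-square per gene 1.93). The fit was tested on simulated counts. The alternatives were other scaling and filters, DESeq2 1.42.0, only the groups compared, a replicate block, a term for the library sets and leaving out each library. Fits within a set were chosen after seeing the data.

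The members and lists were chosen with earlier results of these data known. Every member could be named. Values in every library are given for CCNB1, CDK1, TOP2A and MKI67, the 5 members with the largest change past the threshold in each line and the 3 with the smallest adjusted p in each difference between lines. From each other list up to 4 genes with the smallest adjusted p in the 102xPR line, and up to 4 that passed in another line, were named. CDC25B and SPC25 are also given by library, and KIF14, CENPI, CENPW, CENPM, CHEK2 and PKMYT1 are named as the few genes of their lists that fell. These were chosen after their values were seen. Promoter sequences and coordinates are from RefSeq tables of GRCh38.p14, and transcript lengths from GENCODE v29.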

Additional observations from a re-analysis of the deposited data

Results flagged for a closer look

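The induction response differed between lines by the test of the difference itself (edgeR quasi-likelihood test, Benjamini-Hochberg adjusted p under 0.05) in the following members, with the difference of log2 fold changes in parentheses. The 102xPR response was higher than the ChFP response in NDC80 (1.03), TPX2 (0.97), PRC1 (0.89), PLK1 (0.8), BUB1 (0.78), HMMR (0.77), SMC4 (0.69), CKAP2 (0.66), CDC20 (0.63), AURKA (0.6), BUB1B (0.6), SGO2 (0.6), NUSAP1 (0.58), NCAPG (0.56), ASPM (0.54), SGO1 (0.53), AURKB (0.52), CDC25C (0.47), CENPE (0.45), FOXM1 (0.45), CDCA8 (0.42), SMC2 (0.41), NCAPH (0.39), CCNA2 (0.36), GTSE1 (0.36), ECT2 (0.36), TTK (0.35), DLGAP5 (0.34), ANLN (0.32), NEK2 (0.25), TOP2A (0.21) and NUF2 (0.18). It was lower in CDC25B (-0.31).

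The 102xPR response was higher than the poly-adenylate response in NDC80 (1.02), TPX2 (0.9), HMMR (0.79), PRC1 (0.79), SMC4 (0.7), BUB1 (0.61), PLK1 (0.6), SGO1 (0.59), NUSAP1 (0.57), CKAP2 (0.54), NCAPG (0.54), CENPE (0.49), BUB1B (0.46), SGO2 (0.46), ASPM (0.44), CDC20 (0.42), CDC25C (0.4), NCAPH (0.38), AURKB (0.37), SMC2 (0.35), AURKA (0.34), DLGAP5 (0.3), NEK2 (0.27), ECT2 (0.27), CDCA8 (0.26), FOXM1 (0.26), TTK (0.24), ANLN (0.24), CCNA2 (0.2), TOP2A (0.2) and NUF2 (0.18). It was lower in CDC25B (-0.41), CDCA3 (-0.23) and MAD2L1 (-0.2). Both lists use the same 102xPR libraries. With the library-set term CENPE, NUF2, ASPM and FOXM1 were lost from the list against ChFP. From the list against poly-adenylate that term lost CCNA2, AURKB, BUB1B, MAD2L1, CENPE, NUF2, ASPM, ANLN, SMC2, CDCA3 and FOXM1. No member differed between the poly-adenylate and ChFP responses in that test, with 8 higher at an unadjusted p under 0.05 and 4 called by DESeq2. Groups of 3 libraries are too small for a test of single outlying libraries.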

How the results depend on the processing

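In the 102xPR line the count of 40 members changed stayed within 1.5 times under every alternative run, with 32 to 38 when a single library was left out. The difference from the ChFP response gave 32 to 35 members without single libraries, that from the poly-adenylate response 30 to 36 and, within the set of 10, 22. The ChFP count of 11 was 6 with library totals, 19 with DESeq2, 7 with the library-set term, 6 within the set of 8, and 2 to 24 without single libraries. The poly-adenylate count of 0 was 1 with no filter, 1 with DESeq2 and 0 to 6 without single libraries. The 24 in the ChFP line and the 6 here come from fits in which induction and library set cannot be told apart. The poly-adenylate minus ChFP count of 0 was 4 with DESeq2, 4 with the library-set term and 0 without any single library. The 7 members lower in uninduced 102xPR than uninduced ChFP cells became 11 with DESeq2, 21 with only the 2 groups fitted, 0 with the library-set term and 0 to 5 without single libraries. The cause was not tested. Shares of all genes called under these alternatives are not given.

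Replicate numbers are shared across groups, but same-numbered libraries of a line deviated together only weakly (correlations of 0.0021 to 0.17, not all above 0.1), so the numbers were not taken to pair the libraries. With the replicate block, 40 members changed in the 102xPR line, 1 in the poly-adenylate line and 19 in the ChFP line. With the replicate block and the library-set term together, the count was 9 for the poly-adenylate minus ChFP difference, 0 for uninduced 102xPR and 1 for uninduced poly-adenylate against uninduced ChFP cells.

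A few members changed sign, and the cause was not tested. In the fits named next CDK1, CENPA, BIRC5, MKI67 and CENPF passed the threshold, which they had not in the same comparison, while FOXM1 lost its call. With the library-set term, the 102xPR response of CDK1 was 0.172 and of CENPA 0.133, the difference from the ChFP response 0.304 for CDK1 and 0.255 for BIRC5, and the difference from the poly-adenylate response 0.26 for CDK1 and -0.03 for FOXM1. With the replicate block added to that term, the 102xPR response was 0.173 for CDK1, 0.152 for CENPA and -0.189 for MKI67. The difference from ChFP was then 0.306 for CDK1, 0.227 for BIRC5 and -0.254 for CENPF, and that from poly-adenylate 0.263 for CDK1, -0.339 for CENPF and -0.00437 for FOXM1. Within the set of 10, the 102xPR response was 0.157 for CDK1 and -0.0259 for FOXM1, and the difference from poly-adenylate 0.239 and -0.114. Depth limits SPC25 most, with a mean of 59.7 counts per library.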
